A study of Caenorhabditis elegans with 24 samples.

Results

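The pepsin-like aspartyl proteases of the nematode Caenorhabditis elegans, the products of the asp genes, were described at the messenger RNA level across 24 whole-worm arrays. The 10 genes considered were asp-1, asp-2, asp-3, asp-4, asp-5, asp-6, asp-8, asp-12, asp-13 and asp-14, and 9 of them were found as a probe set whose only gene symbol was that of the gene, among 25434 genes tested. No probe set was matched to asp-2 alone, so asp-2 is not analysed here. The arrays form 8 groups of 3 RNA preparations: daf-16(mgDF47) mutants and wild-type worms, each as adults and as larvae, and each at 25 °C and at 15 °C. Adults were moved to their temperature as late L4 larvae, the stage before adulthood, kept there for 3 days and pooled, about 120 to a preparation. Larvae had been at their temperature since the embryo and were pooled as late L4, about 300 to a preparation. The mutant lacks a working DAF-16, the FOXO transcription factor that insulin-like signalling holds in check in this worm, and all comparisons of genotype rest on this 1 allele.

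Aspartyl proteases of the pepsin family cut proteins in acid compartments with a pair of aspartates in the active site, and are made as inactive precursors. In C. elegans they serve digestion in the intestine, whose cells hold many lysosome-related granules, and protein turnover in lysosomes. ASP-4 is the worm's cathepsin D-like enzyme, and ASP-3 and ASP-4 are known as executioners of necrotic death of neurons. ASP-1 is an intestinal protease known as a mediator of the necrosis caused by a bacterial crystal toxin. For asp-5, asp-6, asp-8, asp-12, asp-13 and asp-14 only membership of the family is used here.

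By the order of genes in the RefSeq table, asp-6, asp-12 and asp-5 are direct neighbours on chromosome V, followed by the pseudogene asp-11. On the same chromosome asp-8 is the neighbour of asp-7, and asp-1 is preceded by asp-17, asp-16 and asp-15 among protein-coding genes. asp-13 also lies on chromosome V, and asp-3, asp-4 and asp-14 lie apart on chromosome X. Probe sequences were not used here, so cross-hybridisation between relatives was not tested.

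Values are the authors' log2 values made by RMA, a method that corrects background, equalises the distributions of the arrays and summarises each probe set. Array medians lay between 3.55 and 3.70 in adults and between 2.96 and 3.08 in larvae, so the stages look to have been processed apart and no level of adults is set against one of larvae. The correlation of arrays within a group, taken over genes (which are not independent), was at least 0.991 for adults and at least 0.988 for larvae. The targeted gene daf-16 was lower in every mutant group, by -2.01 to -2.48. All 15 intestine markers were above the array median on all 24 arrays. The labels number the preparations without saying whether they were separate cultures, so p-values measure the spread between preparations, which may be technical. Calls required an adjusted p below 0.05 (limma, two-sided, Benjamini-Hochberg over all 25434 genes). Each difference is 25 °C minus 15 °C or daf-16 minus wild type on the log2 scale, followed by its SE.

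Temperature moved this family unevenly, and the genes fall into those lower in the warm at both stages (asp-12 and asp-8), 1 called lower in adults and higher in larvae of both genotypes (asp-14), and a set of bright genes with differences under 1 log2 unit (asp-1, asp-3, asp-4, asp-5, asp-6 and asp-13). Within that set asp-6 had opposite signs in the 2 stages, above 0 in adults and below 0 in larvae of both genotypes, with the larval wild-type fall called. In wild-type adults 0 genes rose and 5 of 9 fell at 25 °C (asp-1, asp-3, asp-8, asp-12 and asp-14). The background was 30.1% of all genes called, 15.1% higher and 15% lower. Without the dimmest 25% of genes 7557 genes were called instead of 7667, so the share called among brighter genes was larger. The same 5 members were called there. Centring every array on its own median made 36% of all calls higher instead of 50.2%. In daf-16 adults 1 rose (asp-5) and 2 fell (asp-12 and asp-14), against 24.6% of all genes called, 13.4% higher and 11.2% lower, and centring made 43.4% of all calls higher instead of 54.3%. In wild-type larvae 1 rose (asp-14) and 3 fell (asp-6, asp-8 and asp-12), against a background of 4.28% called, 2.25% higher and 2.03% lower. In daf-16 larvae 1 rose (asp-14) and 2 fell (asp-8 and asp-12), against 4.6% called, 2.72% higher and 1.88% lower. The median difference of the 9 genes was -0.41 in wild-type adults, where that of all genes was -0.10, and -0.37 in wild-type larvae, where that of all genes was -0.03. In the mutant the 9 genes had medians of -0.02 in adults and -0.05 in larvae, beside -0.10 and -0.02 for all genes.

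**Figure D1:**
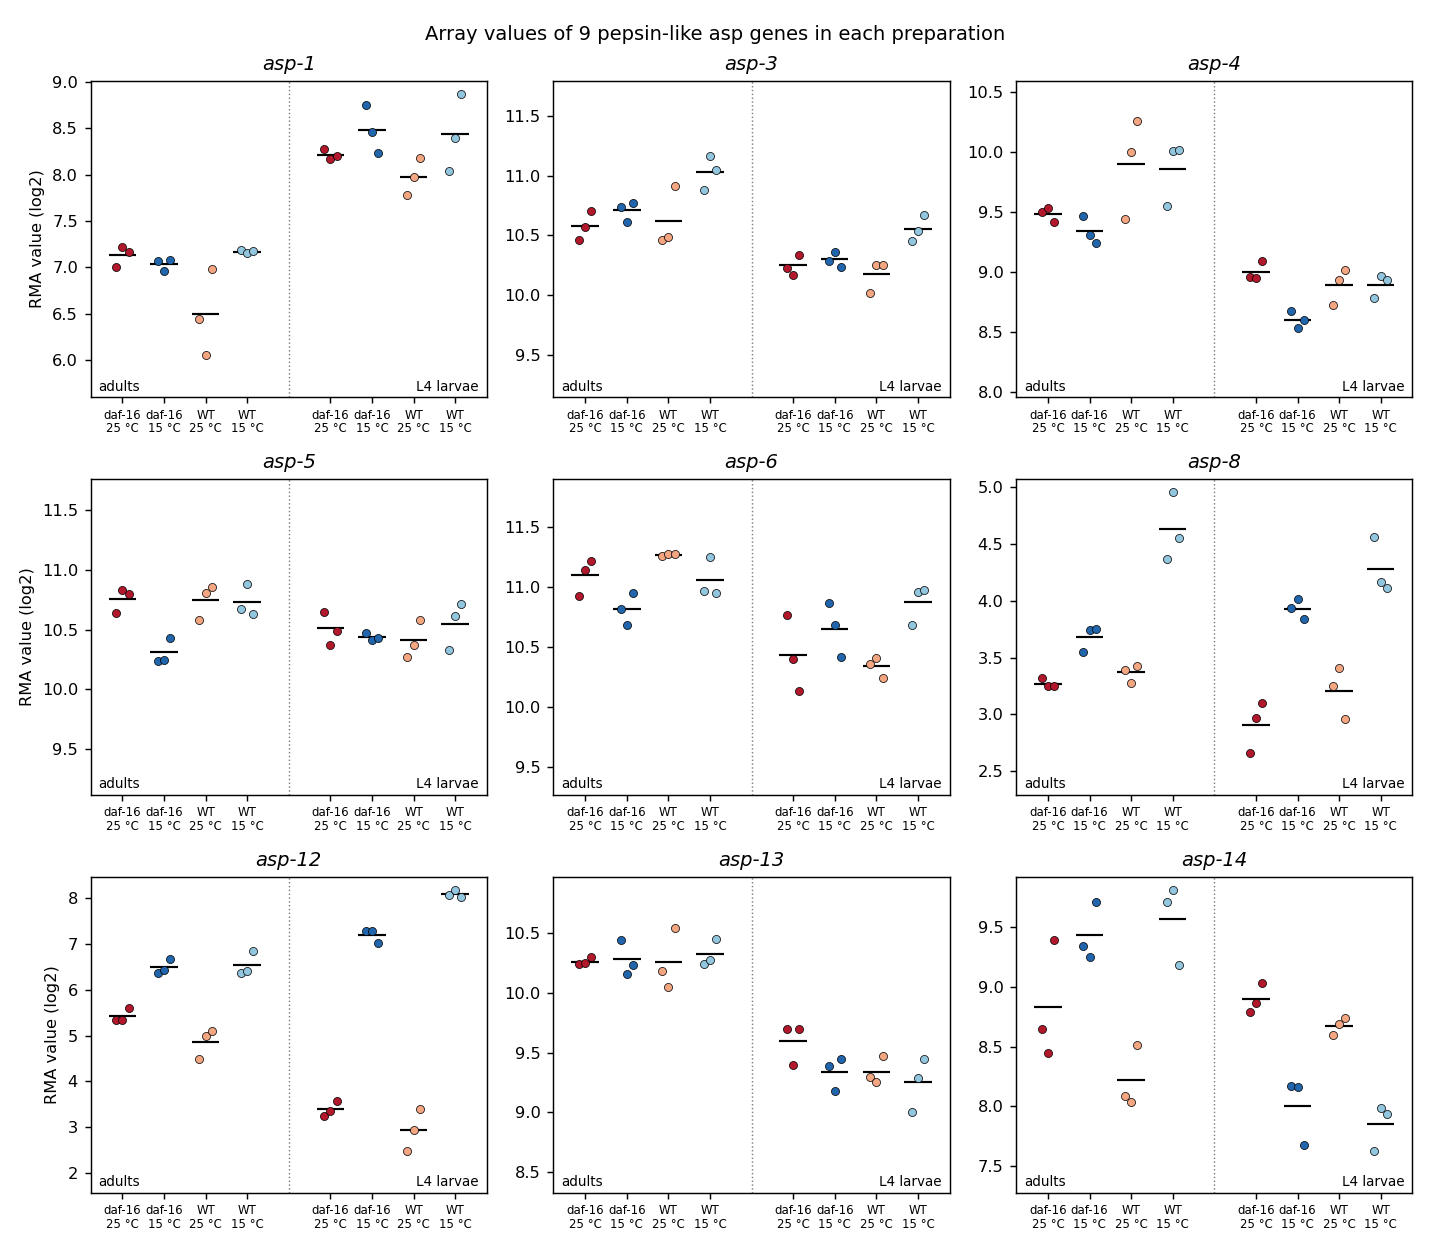
Array values (log2, RMA) of the 9 genes, 1 panel each, with 1 point per preparation and a bar at the mean of 3, daf-16 before wild type and 25 °C before 15 °C, adults left of the dotted line and L4 larvae right of it. Larval asp-12 stands between 2.48 and 3.56 at 25 °C and between 7.03 and 8.19 at 15 °C, while asp-13 moves by less than 0.3 with temperature in every pair of groups; vertical scales differ between panels and the stages are not to be compared within a panel.

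The gene asp-12 was higher in the cold in every genotype and stage, and most so in larvae. In wild-type larvae it read 2.48, 2.93 and 3.40 at 25 °C, against 8.07, 8.19 and 8.04 at 15 °C. The warm arrays sat near the array median (1 of 3 above it) and the cold ones more than 4 log2 units above every warm one. The difference was -5.16 ± 0.19 (SE, n = 3 each; limma adjusted p = 4.6e-14), a level 35.8-fold lower at 25 °C, and 0 of the 25434 genes had a larger absolute difference or a smaller p in that comparison. In daf-16 larvae asp-12 read 3.25, 3.34 and 3.56 at 25 °C, against 7.29, 7.29 and 7.03 at 15 °C. Here too the groups stood far apart, by -3.82 ± 0.19 (limma adjusted p = 2.8e-11) or 14.1-fold, and 1 gene had a larger absolute difference, none a smaller p. With the warm larval values so close to the array medians, how far a floor of the array limits these folds was not tested.

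In adults the same gene fell less with warmth. Wild-type adults had asp-12 values of 4.49, 4.99 and 5.09 at 25 °C, against 6.37, 6.41 and 6.85 at 15 °C, a difference of -1.69 ± 0.19 (limma adjusted p = 5.1e-07) or 3.22-fold lower. daf-16 adults had 5.33, 5.34 and 5.61 at 25 °C, against 6.37, 6.44 and 6.67 at 15 °C, a difference of -1.07 ± 0.19 (limma adjusted p = 0.00021) or 2.10-fold lower. No warm array reached a cold one in either genotype. From the lowest up, the adult means were 4.86 ± 0.32 (SD, n = 3) in wild type at 25 °C, 5.43 ± 0.16 in daf-16 at 25 °C, 6.49 ± 0.16 in daf-16 at 15 °C and 6.54 ± 0.26 in wild type at 15 °C, and only the last pair of neighbours overlapped. The larval order was the same, with 2.94 ± 0.46 in wild type at 25 °C, 3.39 ± 0.16 in daf-16 at 25 °C, 7.20 ± 0.15 in daf-16 at 15 °C and 8.10 ± 0.08 in wild type at 15 °C, and there only the first pair overlapped.

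A smaller fall with warmth was measured for asp-8, a pepsin-like gene whose signal was low throughout. Wild-type adults read 3.39, 3.28 and 3.43 at 25 °C, against 4.37, 4.96 and 4.55 at 15 °C. All 3 warm arrays were below the array median and all 3 cold ones above it, and the difference was -1.26 ± 0.15 (SE, n = 3 each; limma adjusted p = 1.5e-06), 2.39-fold lower. Wild-type larvae read 3.25, 3.41 and 2.96 at 25 °C, against 4.56, 4.17 and 4.11 at 15 °C, a difference of -1.07 ± 0.15 (limma adjusted p = 0.00013). In daf-16 larvae the values were 2.66, 2.97 and 3.1 at 25 °C, against 3.94, 4.02 and 3.84 at 15 °C, a difference of -1.02 ± 0.15 (limma adjusted p = 0.00022). These 3 pairs of groups did not overlap, and in both stages the order from the lowest up was daf-16 at 25 °C, wild type at 25 °C, daf-16 at 15 °C and wild type at 15 °C, with the 2 warm groups overlapping. In daf-16 adults the groups were also apart, at 3.32, 3.25 and 3.25 at 25 °C and 3.55, 3.74 and 3.75 at 15 °C, but the difference of -0.41 ± 0.15 did not pass the test (limma adjusted p = 0.055). It passed with each array centred on its median (adjusted p = 0.027), after cyclic loess (0.033), with adult arrays alone (0.045), with array weights (0.0087) and without the dimmest 25% of genes (0.047).

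Opposite directions in the 2 stages were found for asp-14, another pepsin-like gene. Wild-type adults had 8.09, 8.04 and 8.51 at 25 °C, against 9.71, 9.81 and 9.18 at 15 °C, so all warm arrays were lower. The difference was -1.35 ± 0.21 (SE, n = 3 each; limma adjusted p = 3e-05), 2.55-fold lower. Wild-type larvae had 8.60, 8.69 and 8.74 at 25 °C, against 7.63, 7.99 and 7.94 at 15 °C, so all warm arrays were higher, by 0.82 ± 0.21 (limma adjusted p = 0.025) or 1.76-fold. The differences in the mutant had the same signs. In daf-16 adults asp-14 read 8.65, 8.45 and 9.39 at 25 °C, against 9.34, 9.25 and 9.71 at 15 °C. These groups overlapped through the third warm array, and the fall of -0.60 ± 0.21 (limma adjusted p = 0.038) was lost after cyclic loess (0.079), with adult arrays alone (0.086), with array weights (-0.39, 0.15), and on leaving out daf-16 adult 15 °C replicate 1 (0.062) or 3 (-0.47, 0.16) or daf-16 adult 25 °C replicate 1 (0.13) or 2 (-0.41, 0.22). In daf-16 larvae it read 8.79, 8.86 and 9.03 at 25 °C, against 8.17, 8.16 and 7.68 at 15 °C, all warm arrays being higher, by 0.89 ± 0.21 (limma adjusted p = 0.013). The larval rises lost their calls without wild-type 15 °C replicate 1 (adjusted p = 0.11) and 25 °C replicates 2 (0.085) and 3 (0.086), with array weights in the wild type (0.091), and without mutant 15 °C replicate 3 (0.084) and 25 °C replicate 3 (0.075). The adult means from the lowest up were 8.22 ± 0.25 in wild type at 25 °C, 8.83 ± 0.50 in daf-16 at 25 °C, 9.43 ± 0.25 in daf-16 at 15 °C and 9.57 ± 0.33 in wild type at 15 °C, and each neighbouring pair overlapped. The larval means from the highest down were 8.90 ± 0.12 in daf-16 at 25 °C, 8.67 ± 0.07 in wild type at 25 °C, 8 ± 0.28 in daf-16 at 15 °C and 7.85 ± 0.19 in wild type at 15 °C, and only the 2 cold groups overlapped.

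**Figure D2:**
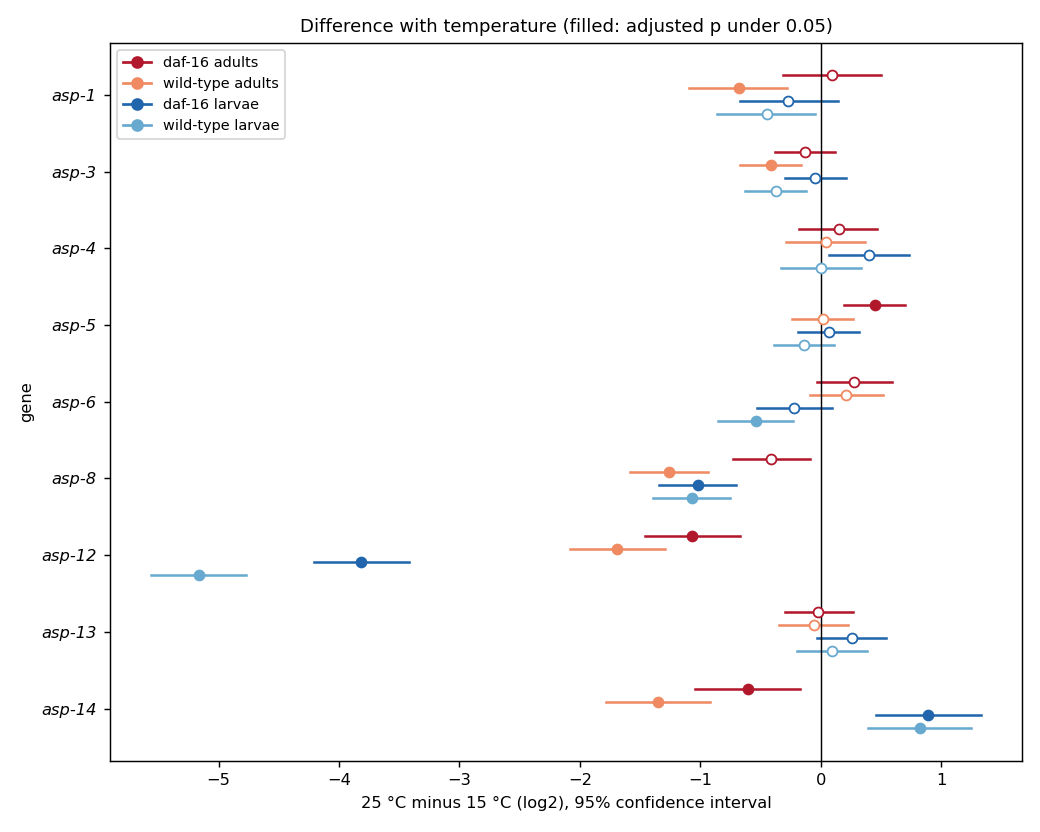
Difference between 25 °C and 15 °C (log2, 25 °C minus 15 °C) for each gene, with daf-16 above wild type within each stage and bars for the 95% confidence interval of the fit over 3 arrays per group. Filled points passed an adjusted p under 0.05; asp-12 lies at -5.16 in wild-type and -3.82 in daf-16 larvae, and asp-14 is below 0 in adults and above 0 in larvae.

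The lysosomal proteases asp-3 and asp-4 were steadier. In wild-type adults asp-3 had 10.46, 10.49 and 10.91 at 25 °C, against 10.88, 11.16 and 11.05 at 15 °C, and the groups overlapped by a single array. The fall of -0.41 ± 0.12 (SE, n = 3 each; limma adjusted p = 0.013) was lost after cyclic loess (-0.22, adjusted p = 0.21), and on leaving out replicate 2 of the wild-type adults at 15 °C (0.066) or replicate 1 or 2 of those at 25 °C (0.071 each). Wild-type larvae had asp-3 at 10.02 to 10.25 at 25 °C and 10.45 to 10.67 at 15 °C, without overlap, but -0.37 ± 0.12 did not pass (limma adjusted p = 0.091). In the mutant asp-3 differed by -0.13 in adults and -0.05 in larvae (adjusted p = 0.47 and 0.92). The cathepsin D-like asp-4 passed in no temperature comparison. Its difference was 0.15 in daf-16 adults, 0.04 in wild-type adults, 0.40 in daf-16 larvae (limma adjusted p = 0.17) and 0.00 in wild-type larvae, each with an SE of 0.16. In daf-16 larvae asp-4 read 8.95 to 9.09 at 25 °C and 8.53 to 8.67 at 15 °C, without overlap. For wild-type adults the 95% interval of asp-4 ran between -0.29 and 0.37.

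The intestinal asp-1 was lower in warm wild-type adults and variable there. It read 6.44, 6.05 and 6.98 at 25 °C, against 7.19, 7.15 and 7.18 at 15 °C, a fall of -0.68 ± 0.20 (SE, n = 3 each; limma adjusted p = 0.010). The warm group had an SD of 0.47 and the cold group 0.02. Without wild-type adult 25 °C replicate 2 the difference was -0.46 and not called (adjusted p = 0.096). Elsewhere asp-1 was not called, with 0.09 in daf-16 adults, -0.27 in daf-16 larvae and -0.45 in wild-type larvae (adjusted p = 0.76, 0.58 and 0.22).

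The neighbours asp-5 and asp-6 showed little of the response of asp-12, which lies between them. In daf-16 adults asp-5 had 10.64, 10.83 and 10.80 at 25 °C, against 10.24, 10.25 and 10.43 at 15 °C, a rise of 0.45 ± 0.12 (limma adjusted p = 0.0096, and 0.00071 to 0.047 over 12 alternative settings). The other 3 temperature differences of asp-5 were 0.02, 0.07 and -0.14 in wild-type adults, daf-16 larvae and wild-type larvae. In wild-type larvae asp-6 had 10.36, 10.41 and 10.24 at 25 °C, against 10.68, 10.96 and 10.98 at 15 °C, and the groups stood apart. This fall of -0.54 ± 0.15 (limma adjusted p = 0.039) was lost with larval arrays alone (0.12), without wild-type larval 15 °C replicates 2 (0.12) or 3 (0.12) and without 25 °C replicates 1 (0.069), 2 (0.083) or 3 (0.14). In adults asp-6 was at 0.28 in the mutant and 0.21 in the wild type (limma adjusted p = 0.18 and 0.30), and both were called after cyclic loess (0.42 and 0.40, adjusted p = 0.029 and 0.030, where the larval wild-type fall was -0.51 at 0.030), the mutant value also with array weights (0.34, adjusted p = 0.043). asp-13 passed in no temperature comparison. Its 4 temperature differences ran between -0.06 and 0.26 with an SE of 0.14. The 95% interval ran between -0.35 and 0.23 in wild-type adults and between -0.03 and 0.54 in daf-16 larvae.

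The loss of daf-16 was called for 1 of the 9 genes in 1 of 4 comparisons. In adults at 15 °C asp-8 had 3.55, 3.74 and 3.75 in daf-16 worms, against 4.37, 4.96 and 4.55 in the wild type. The groups did not overlap, and the difference of -0.95 ± 0.15 (SE, n = 3 each; limma adjusted p = 0.0015, and 0.00028 to 0.012 over 12 alternative settings) was called where 1.47% of all genes were, 0.959% higher and 0.511% lower. All 9 differences had a sign below 0 in that comparison, with a median of -0.24 beside 0.00 for all genes. An unadjusted p under 0.05 was found by limma for 4 of 9, beside 3172 of 25434 genes. Larvae at 15 °C kept this direction in most genes, with 3 of 9 above 0 and a median of -0.22 (all genes -0.04). It was not kept at 25 °C in either stage. In adults at 25 °C 5 of 9 were above 0 (median 0.01, all genes 0.02). In larvae at 25 °C 8 of 9 were above 0 (0.11, all genes -0.02). In adults at 15 °C asp-4 was at -0.52 ± 0.16 (limma adjusted p = 0.12, but 0.043 at -0.68 without wild-type adult 15 °C replicate 1) and asp-5 at -0.42 ± 0.12 (adjusted p = 0.097). asp-3 was at -0.32 ± 0.12 (adjusted p = 0.24). With array weights asp-4 and asp-5 passed (adjusted p = 0.016 and 0.036).

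At 25 °C 0 of 9 genes were called in adults by limma, with 3% of all genes called, 1.36% higher and 1.64% lower. An unadjusted p under 0.05 was found for 4 of 9, beside 3571 of 25434 genes. asp-1 had 7, 7.22 and 7.17 in daf-16 adults, against 6.44, 6.05 and 6.98 in the wild type. The groups were just apart, the difference was 0.64 ± 0.20 (adjusted p = 0.084), and without wild-type adult 25 °C replicate 3 it passed at 0.89 (adjusted p = 0.013). asp-12 was at 0.57 ± 0.19 and asp-14 at 0.61 ± 0.21 (adjusted p = 0.12 and 0.13), and asp-4 at -0.41 ± 0.16 (adjusted p = 0.20, but 0.011 at -0.64 without wild-type adult 25 °C replicate 1). These 4 genes passed with array weights (adjusted p = 0.018 for asp-1, 0.031 for asp-12, 0.018 for asp-14 and 0.0089 for asp-4). asp-8, called in the cold, was at -0.10 ± 0.15 here.

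In larvae 0 of 9 genes were called for genotype at either temperature by limma. Of all genes 0.0708% were called at 15 °C (0.0197% higher, 0.0511% lower) and 0.118% at 25 °C (0.0118% higher, 0.106% lower). An unadjusted p under 0.05 was found at 15 °C for 3 of 9, beside 1999 of 25434 genes. At 25 °C it was found for 1 of 9, beside 1268 of 25434 genes. The largest differences were those of asp-12. At 15 °C it was lower in daf-16 larvae, without overlap, at -0.90 ± 0.19 (limma adjusted p = 0.068, but 0.036 with array weights), and at 25 °C it was at 0.45 ± 0.19 (adjusted p = 0.89). asp-8 was at -0.35 ± 0.15 at 15 °C and -0.30 ± 0.15 at 25 °C (adjusted p = 0.60 and 1).

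**Figure D3:**
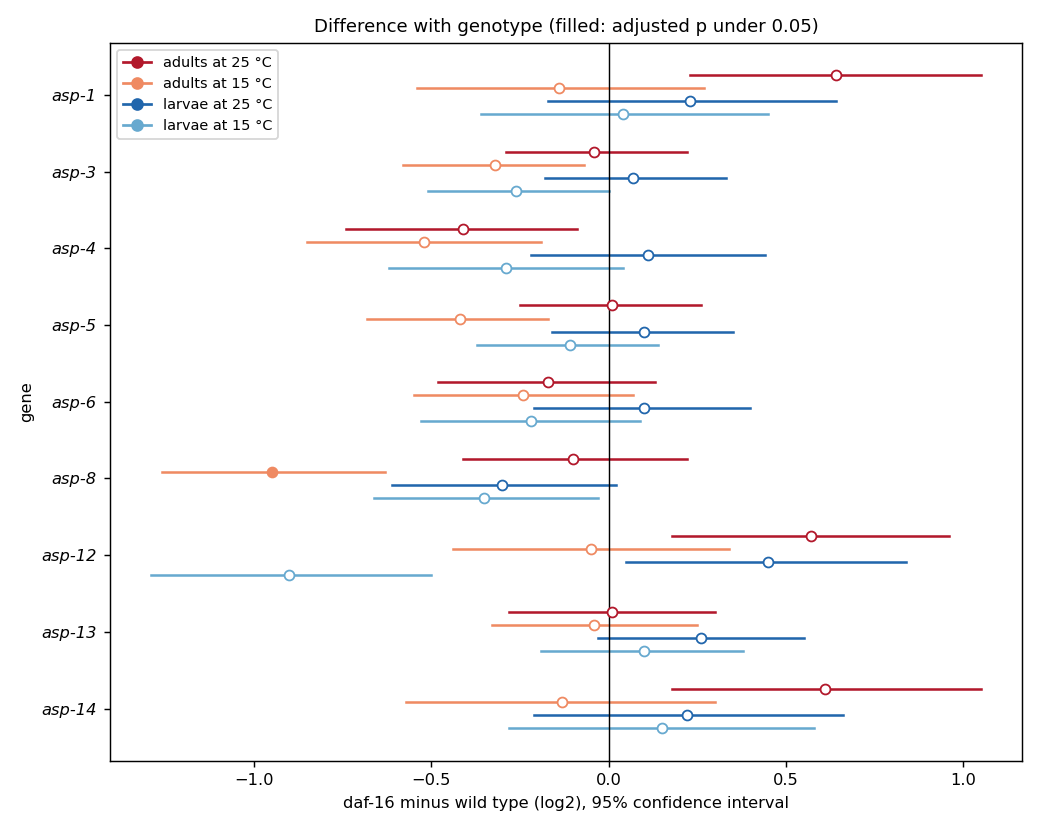
Difference between daf-16 and wild type (log2, daf-16 minus wild type) for each gene, with 25 °C above 15 °C within each stage and bars for the 95% confidence interval of the fit over 3 arrays per group. The single filled point, called at an adjusted p under 0.05, is asp-8 in adults at 15 °C (-0.95).

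Whether the temperature response needs daf-16 was tested as the response in the mutant minus that in the wild type. In adults 0 of 9 genes passed by limma, where 0.267% of all genes passed, 0.0315% above 0 and 0.236% below. An unadjusted p under 0.05 was found for 5 of 9, beside 1716 of 25434 genes. All 9 values were above 0, between 0.05 and 0.85 with a median of 0.43 beside 0.02 for all genes. The largest was asp-8 at 0.85 ± 0.22 (limma adjusted p = 0.14, but 0.028 with array weights), followed by asp-1 at 0.78 ± 0.28 (0.44), asp-14 at 0.75 ± 0.30 (0.56), asp-12 at 0.62 ± 0.27 (0.65) and asp-5 at 0.43 ± 0.17 (0.58). In larvae 0 of 9 genes and 0% of all genes passed by limma, while 1 of 9 and 1050 of 25434 had an unadjusted p under 0.05. The 9 values lay between 0.05 and 1.34 with a median of 0.21. asp-12 was at 1.34 ± 0.27 (unadjusted p = 5.1e-05, adjusted p = 0.36), and 1 gene had a smaller p. Without wild-type larval 25 °C replicate 3 it passed, at 1.58 (adjusted p = 0.033). The wild-type and mutant responses of each gene come from separate arrays, but all genes share the same 12 arrays of a stage.

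The temperature response of adults was set against that of larvae as a difference of differences, which needs no common level but does rest on stages processed apart. Adults had 3 days at their temperature from late L4, while larvae had been at theirs since the embryo. Stage and the timing of exposure therefore cannot be told apart in these values. In the wild type 3 of 9 genes passed, 2 above 0 and 1 below, where 13.8% of all genes passed (8.66% above and 5.10% below). Of all calls 63% were above 0, and 52.8% with each array centred. asp-12 differed by 3.47 ± 0.27 (SE; limma adjusted p = 3.7e-08), with -1.69 in adults and -5.16 in larvae. asp-14 differed by -2.17 ± 0.30 (adjusted p = 2.8e-05), with a fall in adults and a rise in larvae. asp-6 differed by 0.75 ± 0.21 (adjusted p = 0.018), at 0.21 in adults and -0.54 in larvae. In the mutant 2 of 9 passed, 1 above 0 and 1 below, where 10% of all genes did, 6.82% above and 3.21% below. Of all calls 68% were above 0, and 58% with centring. These were asp-12 at 2.75 ± 0.27 (adjusted p = 1.5e-06) and asp-14 at -1.50 ± 0.30 (adjusted p = 0.0016), and asp-6 was at 0.50 ± 0.21 (adjusted p = 0.15, but 0.040 at 0.67 without daf-16 larval 25 °C replicate 1). For asp-8 the difference was -0.19 ± 0.22 in the wild type, with a 95% interval between -0.64 and 0.26, and 0.61 ± 0.22 in the mutant (adjusted p = 0.078, but 0.017 with array weights).

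**Figure D4:**
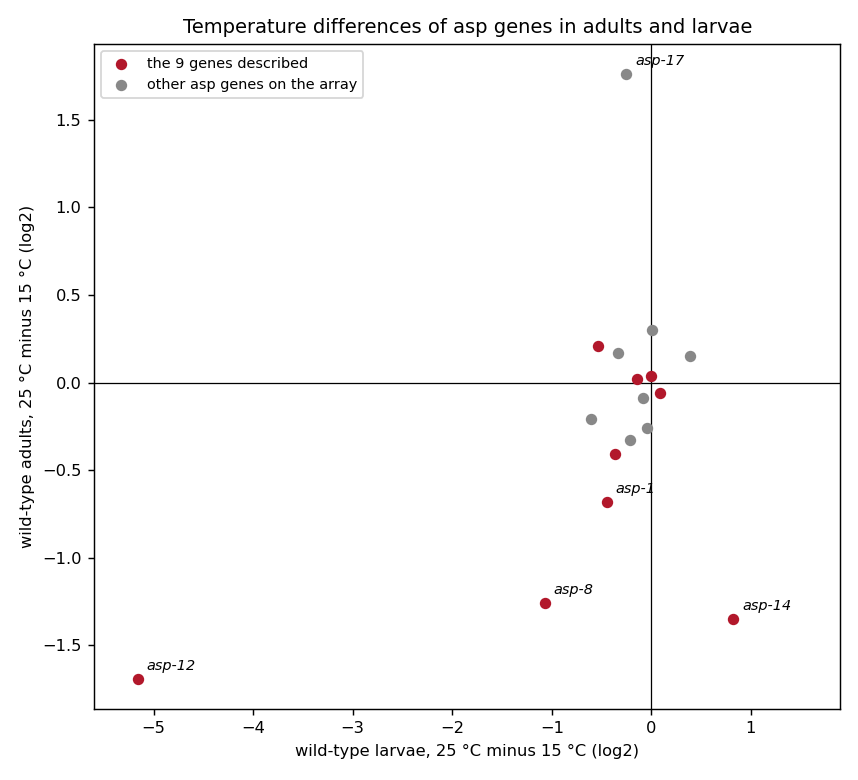
Temperature difference (log2, 25 °C minus 15 °C) in wild-type adults on the vertical axis against wild-type larvae on the horizontal axis, 1 point per gene, for the 9 genes described and the 8 other asp genes with a probe set. asp-12 lies farthest left at -5.16, asp-14 is at -1.35 in adults and 0.82 in larvae, both called, and asp-17 stands highest at 1.76.

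Of 9 other pepsin-like asp genes looked for, 8 were measured, and 7 of these lay below the array median on all 24 arrays, asp-17 being the exception. None of the 7 was called for temperature in either genotype or stage. asp-17 read 9.15, 9.56 and 9.03 in daf-16 adults at 25 °C, against 5.78, 5.96 and 5.76 at 15 °C. This rise of 3.42 ± 0.43 (SE, n = 3 each; limma adjusted p = 3.5e-06) is in the direction opposite to asp-12, asp-8 and asp-14 in the same worms. In wild-type adults asp-17 had 7.35, 7.84 and 8.30 at 25 °C, against 4.97, 7.73 and 5.52 at 15 °C, a rise of 1.76 ± 0.43 (adjusted p = 0.0030) with groups that overlapped through 1 cold array. Without that array, wild-type adult 15 °C replicate 2, the rise was 2.59, and it was 1.21 (adjusted p = 0.034) without 15 °C replicate 1. In larvae asp-17 was at -0.12 in the mutant and -0.25 in the wild type (adjusted p = 0.95 and 0.84).

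Other proteolytic genes were called in both directions, as were all genes. In warm wild-type adults 15.1% of all genes were called higher and 15% lower, and in warm wild-type larvae 2.25% and 2.03%. These shares are the background for the counts of each list. Among 12 cathepsin-like cysteine proteases, which share the lysosome and the gut lumen with the aspartyl enzymes, 3 rose and 2 fell in warm wild-type adults, led by cpr-8 (-2.14 ± 0.17), the cathepsin F-like tag-196 (1.58 ± 0.17) and cpr-3 (1.14 ± 0.24). In warm wild-type larvae 0 rose and 2 fell, cpr-3 (-1.49) and cpr-8 (-0.83). Of 38 other lysosomal hydrolases and membrane proteins, 17 rose and 3 fell in warm wild-type adults, with a median of 0.34 beside -0.10 for all genes. These were led by the alpha-glucosidase aagr-1 (1.88), the sphingomyelinase asm-3 (1.74) and the prolyl carboxypeptidase-like pcp-4 (-1.63). In wild-type larvae 5 rose and 0 fell, led by the ceramidase asah-1 (1.74), aagr-1 (0.89) and aagr-4 (0.73). For temperature by genotype in adults 1 of these 38 passed, the hexosaminidase hex-1 (-0.84 ± 0.16, limma adjusted p = 0.025).

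The vacuolar proton pump, which acidifies the compartments in which these proteases work, had 1 of 19 genes higher and 1 lower in warm wild-type adults, vha-5 (0.69) and vha-18 (-0.86), and 0 higher and 1 lower in larvae, vha-18 (-0.54). Of 7 aspartyl proteases of other families (presenilins, signal peptide peptidases and the retroviral type), 0 rose and 2 fell in wild-type adults, imp-3 (-0.45) and ddi-1 (-0.36), and 0 rose and 1 fell in larvae, imp-1 (-0.37). Of 14 calpain and calcium genes tied to necrotic death, in which asp-3 and asp-4 act, 3 rose and 3 fell in wild-type adults, led by the calpain clp-4 (1.30) and the channel subunits deg-1 (1.2) and deg-3 (0.78), and 0 were called in larvae. Apart from hex-1, no gene of these lists or of the other asp genes passed for temperature by genotype in adults by limma.

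Marker genes of tissues moved with temperature in the same adults. Of all genes 15.1% were called higher and 15% lower in warm wild-type adults, and 13.4% and 11.2% in warm daf-16 adults. In warm wild-type larvae the shares were 2.25% and 2.03%. In warm wild-type adults 3 of 15 intestine markers rose and 6 fell, and the median of the 15 was 0.12 beside -0.10 for all genes. The largest called differences were falls, in the peptide transporter pept-1 (-1.35 ± 0.12), the phosphatase pho-1 (-1.02) and the proton exchanger nhx-2 (-0.63). The summed linear values of the 15 were 7625 to 8227 at 25 °C and 7981 to 8559 at 15 °C. Of 16 body wall muscle markers 12 rose and 0 fell, with sums of 8682 to 9672 at 25 °C and 6062 to 6305 at 15 °C. Of 14 neuron markers 10 rose and 1 fell, with sums of 4901 to 5057 at 25 °C and 3878 to 3982 at 15 °C. Sperm markers summed to 401 to 1668 at 25 °C and 219 to 243 at 15 °C (5 of 15 rose, 0 fell), and germ line markers to 31775 to 33750 at 25 °C and 35081 to 36406 at 15 °C (0 of 18 rose, 2 fell). Of 12 epidermis markers 4 rose and 0 fell. In warm daf-16 adults 5 muscle markers rose and 1 fell, with sums of 7647 to 8717 at 25 °C and 6432 to 8293 at 15 °C, and 3 intestine markers rose and 1 fell, with sums of 8050 to 8696 at 25 °C and 8256 to 8568 at 15 °C. There 7 neuron markers rose and 0 fell. For temperature by genotype in adults the muscle markers had a median of -0.35, with 0 called above 0 and 1 below, the troponin T gene tnt-2 (-1.03 ± 0.21, limma adjusted p = 0.030), while the intestine markers had a median of 0.04 and 0 of 15 called. In whole worms fewer cells of a type and less RNA per cell cannot be told apart, and the part of these shifts in the temperature and temperature by genotype values of the asp genes was not tested. In wild-type larvae, where asp-12 differed most, 1 intestine marker rose and 1 fell, elt-7 (0.84) and pept-1 (-0.48), with sums of 5647 to 5977 at 25 °C and 5325 to 6768 at 15 °C. Muscle and neuron markers had 0 of 16 and 0 of 14 called there, epidermis markers had 0 of 12 higher and 3 lower, germ line markers 0 of 18 higher and 2 lower, and sperm markers 1 of 15 higher and 0 lower. The germ line sums stood apart in both genotypes, at 6644 to 10023 in daf-16 larvae at 25 °C and 10906 to 12924 at 15 °C, and at 8367 to 11713 in wild-type larvae at 25 °C and 11875 to 13205 at 15 °C. The median germ line difference was -0.36 in daf-16 and -0.30 in wild-type larvae, beside -0.02 and -0.03 for all genes, and its part in the larval asp-12 values was not tested.

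The genes whose pattern was most like each called member were sought among 10818 named genes. The measure was the root mean square difference over all 24 arrays, after each gene's stage mean was subtracted, and it is a description of these arrays. The closest to asp-12 was fat-7, a stearoyl-CoA desaturase, at 0.84 log2 units where the median gene was at 1.69, followed by nspb-4 (0.93) and zig-3 (0.99). fat-7 fell with warmth in all 4 cases, by -2.06 in daf-16 adults, -2 in wild-type adults, -2.48 in daf-16 larvae and -2.74 in wild-type larvae, while nspb-4 and zig-3 fell only in larvae among these 4 comparisons by limma. asp-8 was closest to the RNA-binding protein gene rbm-3.1 (0.28, median gene 0.58), stl-1 (0.31) and lpd-6 (0.32). asp-14 was closest to the lectin gene clec-265 (0.25, median gene 0.57), the collagen gene col-90 (0.32) and ctsa-3.1 (0.32), a serine carboxypeptidase. For asp-1 they were ilys-5 (0.19), sptl-3 (0.20) and rft-1 (0.22), for asp-3 rpn-5, acox-1.5 and drr-2 (0.12 each), for asp-5 ctsa-4.2 (0.13), spp-5 (0.13) and mmad-1 (0.14), and for asp-6 perm-4 (0.16), plin-1 (0.17) and cgh-1 (0.17). The median gene was also near for these, at 0.37 for asp-1, 0.27 for asp-3, 0.29 for asp-5 and 0.33 for asp-6. Between members the closest pair was asp-5 and asp-6 (0.19), and asp-12 was no nearer than 1.31 to any other, its value for asp-8. The measure is small between genes that move little and large for a gene that moves much. Around its stage means asp-12 had a root mean square of 1.7, against 0.18 for asp-5 and 0.24 for asp-6. The closeness of that pair is therefore not read as a shared response.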

How the data were processed

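Total RNA of pooled whole worms was hybridised to Affymetrix C. elegans Gene 1.1 ST arrays, 1 per preparation, per the labels. The deposited values are on a log2 scale, and the submitters' processing notes name RMA, whose version and settings are not given in the sources used here. Of 29317 probe sets, 25484 had 1 gene symbol, 700 several and 3133 none. Where several probe sets shared a gene (41 genes), the brightest on average was used, and 3 probe sets blank on some arrays were left out, so 25434 genes were tested with no filter on dim genes. Each of the 9 members had 1 probe set.

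R 4.3.3 and limma 3.58.1 were used. Means of 8 groups were fitted over 24 arrays (lmFit, contrasts.fit, eBayes; 16 residual and 6.06 prior degrees of freedom) and tested two-sided in 12 comparisons. RMA values carry no detection calls, and the 3 arrays per group limit the precision. Same-numbered preparations deviated together, with every correlation over 0.1, in 2 comparisons, temperature among wild-type adults (0.26 at the lowest) and genotype among larvae kept at 25 °C (0.15 at the lowest), and the preparation number as a block changed no call of a member there. The calculations were checked on simulated data.

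The members, gene lists and comparisons were chosen with earlier results of these data known. Named are all members, daf-16, the 3 genes most like each called member, and up to 3 called genes per list with the largest difference in wild-type temperature comparisons and temperature by genotype in adults. The mutant and genotype values of asp-17 lie outside that rule and were added after they were seen. Alternatives were array centring, cyclic loess, the arrays of 1 stage, array weights, a filter on the dimmest 25% of genes, the block, and each array left out.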

Additional observations from a re-analysis of the deposited data

Results flagged for a closer look

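The temperature response differed between adults and larvae, by limma's test of the difference, for asp-6, asp-12 and asp-14 in the wild type (0.75, 3.47 and -2.17, adult minus larval response) and for asp-12 and asp-14 in the mutant (2.75 and -1.50). In the wild type each was called under all 17 alternative settings, with adjusted p between 0.0022 and 0.047 for asp-6, 1.2e-08 and 3.1e-07 for asp-12, and 1.8e-05 and 2e-04 for asp-14. In the mutant asp-12 and asp-14 were also called under all 17, with adjusted p between 6.2e-08 and 1e-05 and between 0.00017 and 0.0077. Adult and larval arrays look to have been normalized apart, and the part of that in these differences was not tested. Adults and larvae also differed in when and how long they were at their temperature, which cannot be told apart from stage.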

How the results depend on the processing

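Among 1660 values of the 9 members and asp-17 under alternatives, 1604 kept their direction where called and their side of the threshold, 31 lost a call, 25 gained one and 0 called values changed sign. With array weights 3 instead of 1 member were called for genotype in adults at 15 °C, 4 instead of 0 at 25 °C, 1 instead of 0 in larvae at 15 °C and 1 instead of 0 for temperature by genotype in adults. The replicate block, with preparation numbers that do not pair the arrays there, gave 1 instead of 0 for genotype in larvae at 15 °C (asp-12, adjusted p = 0.035), called asp-17 for genotype in adults at 25 °C (1.42, adjusted p = 0.042), and changed no other call. It took the count of all genes for genotype in larvae at 15 °C to 39, against 18. With 1 array left out, members called ranged from 3 to 5 for temperature in wild-type adults, from 2 to 3 in wild-type larvae, daf-16 adults and daf-16 larvae, from 1 to 2 for genotype in adults at 15 °C, from 0 to 1 at 25 °C and for temperature by genotype in larvae, and from 2 to 3 for temperature by stage in daf-16. The low counts were 3 on leaving out replicate 2 of wild-type adults at 25 °C, and 2 on leaving out replicate 2 or 3 of wild-type larvae at 25 °C. The high counts were 2 on leaving out replicate 1 of wild-type adults at 15 °C (genotype at 15 °C), 1 on leaving out replicate 1 or 3 of wild-type adults at 25 °C (genotype at 25 °C) and 1 on leaving out replicate 3 of wild-type larvae at 25 °C (temperature by genotype in larvae). The causes were not tested. Counts of all genes moved by over 1.5 times with arrays of 1 stage alone, to 606 against 1088 for temperature in wild-type larvae, 586 against 1170 in daf-16 larvae, 232 against 374 for genotype in adults at 15 °C and 25 against 68 for temperature by genotype in adults. With array weights they were 797 against 374 and 2059 against 762 for genotype in adults at 15 °C and 25 °C, 175 against 68 for temperature by genotype in adults, 28 against 18 for genotype in larvae at 15 °C and 3878 against 2552 for temperature by stage in daf-16. On leaving out 1 array the lowest counts were 561 and 602 for temperature in wild-type and daf-16 larvae, 156 and 386 for genotype in adults at 15 °C and 25 °C, and 33 for temperature by genotype in adults, whose highest was 114. Dim signal limits asp-8 and warm larval asp-12, which lie near the array medians.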
